A study of Mus musculus with 2 samples.

Results

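The CC chemokine ligands are small secreted proteins that attract leukocytes, and the 10 genes described here are *Ccl2*, *Ccl3*, *Ccl4*, *Ccl5*, *Ccl6*, *Ccl7*, *Ccl8*, *Ccl9*, *Ccl12* and *Ccl22*. They were taken by symbol from a table of raw counts over 54532 gene identifiers, in which the mouse annotation gives 27 CC chemokine ligand symbols. All 10 had at least 10 counts over both libraries, as did 14489 identifiers in all. The study asked what folate receptor β (FRβ), the product of *Folr2*, does in macrophages, and sequenced RNA of bone marrow-derived macrophages (BMDMs) in an M1-like state, from FRβ KO and WT mice. The FRβ KO library came from male C57BL/6 mice whose *Folr2* gene is interrupted by a neomycin resistance gene, an allele first carried on the inbred SWV background and then crossed onto C57BL/6. The WT library came from male C57BL/6 mice. Bone marrow of both genotypes was grown for 7 days with 20 ng/mL M-CSF, a growth factor that drives macrophage differentiation, in what the labels call regular RPMI medium, with serum. IFNγ at 20 ng/mL was then added for 24 h, together with LPS, the bacterial lipopolysaccharide, at 1 ng/mL. RNA of 3 mice was pooled within each genotype before sequencing, so each genotype had 1 library, the spread between mice is unknown, and no p-value is given. Each ratio is FRβ KO over WT on library sizes scaled by TMM (trimmed mean of M-values). Its 95% interval covers counting error only, since 1 library per genotype gives no other spread. Reads without molecular identifiers are not independent molecules, so the interval may be too narrow even for counting error. Per the methods, wild-type animals were bought from a supplier while the FRβ KO line was bred in house, so genotype cannot be told apart from mouse source. Neither labels nor methods explain the "FA_N" of the sample names.

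Members of this family carry a pair of adjacent cysteines near the start of the mature protein, and signal through seven-helix receptors of the CCR group. Ligands of CCR2 draw monocytes out of the marrow and into inflamed tissue. Ligands of CCR1 act on monocytes and T cells, and ligands of CCR4 act mainly on T helper and regulatory T cells. Macrophages stimulated with LPS and IFNγ are a known source of several of them, through NF-κB and IRF factors. The adjacent cysteine codons that give the family its name are shown in capitals for 5 members, each with 5 codons before and 5 after, read 5′ to 3′ from the GENCODE M21 transcripts. They are shown because the rest of the window differs from gene to gene, which is what lets reads be told apart.
Ccl6: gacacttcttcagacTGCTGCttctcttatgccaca
Ccl8: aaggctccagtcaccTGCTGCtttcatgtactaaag
Ccl9: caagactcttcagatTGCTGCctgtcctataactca
Ccl12: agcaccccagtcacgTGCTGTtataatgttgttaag
Ccl22: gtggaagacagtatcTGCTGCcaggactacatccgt

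In an alignment of the members' transcripts with all annotated transcripts, the closest CC ligand to *Ccl6* was *Ccl9*, at 75.5% identity over 290 bases, and the closest to *Ccl2* was *Ccl7*, at 72.5% over 236 bases. *Ccl8* and *Ccl12* were 70.2% identical over 339 bases. No member but *Ccl9* shared 150 bases at 95% identity with another gene. *Ccl9* transcripts did so with 4 other genes, so some of its reads may be shared with them. On the opposite strand, *Gm17268* overlaps *Ccl2* and had 0 counts in both libraries, and *E230016K23Rik* overlaps *Ccl6* and had 14 counts in FRβ KO and 6 in WT. Neither labels nor methods state a strand setting for the counting, and reads of overlapping genes cannot be told apart without it.

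The FRβ KO library held 19742619 counts over 19090 detected genes and the WT library 18871271 over 18945. *Folr2* itself (chromosome 7 of mm10, 101839988 to 101857194, minus strand) was counted 2 times in FRβ KO and 0 times in WT, so at this depth its RNA cannot serve as a check of the genotype labels. All 8 macrophage markers passed the filter of 10 counts, with summed levels of 17495 CPM in FRβ KO and 19792 CPM in WT, where CPM is the count divided by the TMM-scaled library size in megacounts. *Lyz2* made up most of that sum, and the other 7 markers had 3697 CPM in FRβ KO and 3444 CPM in WT. Of the 8 ratios 4 lay below 1, among them *Fcgr1* at 0.787 (0.740 to 0.836), and 4 above it. The 1 marker with its whole interval past 1.5-fold was *Cd14*, at 1.74 (1.69 to 1.80). It had 562 CPM in FRβ KO and 323 CPM in WT, a large part of the gap between the sums of those 7 markers. The median log2 ratio over all 14489 genes was −0.0028. Of 2 common reference genes, chosen after their values were seen, *Actb* had a ratio of 0.897 (0.884 to 0.911), while *Gapdh*, a glycolytic enzyme gene, had 507 counts in FRβ KO and 5852 in WT (ratio 0.0809, 0.0737 to 0.0886), a wider gap than in any of the ligands. Its bearing on the ligand values was not tested.

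Of the 10 ligands, 8 were lower in FRβ KO and 1 was higher, each with its whole counting interval on 1 side of a ratio of 1, and *Ccl3* was the 1 whose interval held 1. *Ccl2*, *Ccl6*, *Ccl7* and *Ccl8* were lower by more than 1.5-fold across their intervals, and *Ccl5*, the most abundant of them, was higher. Over all tested genes, 16.6% had their whole interval below 1 and 15.0% above it. The whole interval lay past 1.5-fold lower for 4 of 10 ligands, beside 1.07% of all genes, and past 1.5-fold higher for 0 of 10, beside 0.959%. Past 2-fold lower there was 1 of 10, *Ccl7*, beside 0.407%, and past 2-fold higher 0 of 10, beside 0.311%. The median log2 ratio of the 10 ligands was −0.80. The plot of CPM by library shows each gene in both libraries.

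**Figure D1:**
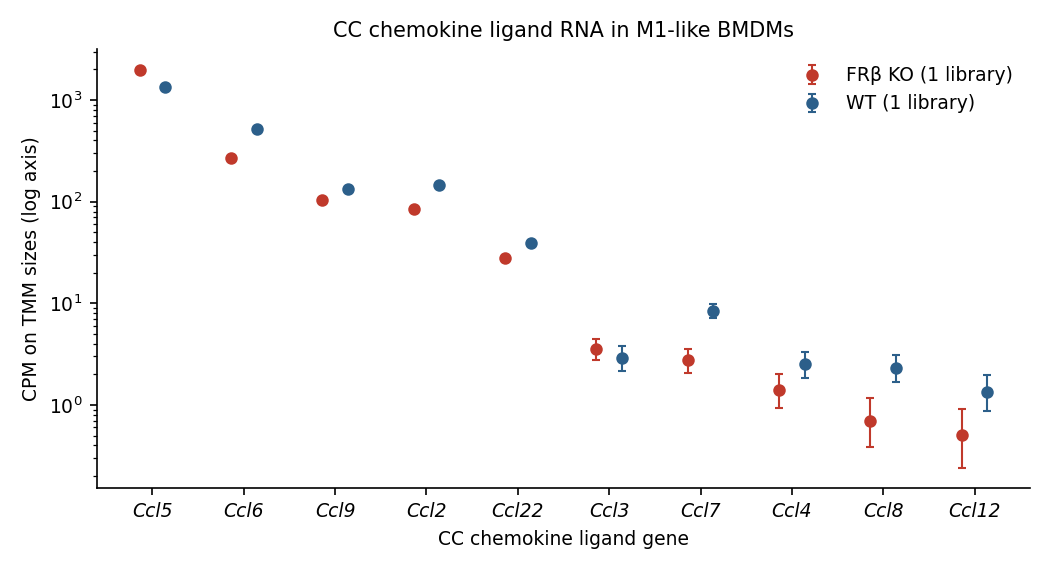
CPM of the 10 CC chemokine ligand genes (log axis) in the FRβ KO library (red, left of each pair) and the WT library (blue, right), ordered by the FRβ KO level, with bars for the 95% counting interval. *Ccl5* stood at 1991 CPM in FRβ KO and 1340 CPM in WT, and 8 of the other 9 genes had the lower point in FRβ KO.

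The CCR2 ligands and their neighbours lie in 1 cluster on chromosome 11, and all 4 measured there were lower in FRβ KO. *Ccl2* (ENSMUSG00000035385, chromosome 11 of mm10, 82035571 to 82037453, plus strand) encodes MCP-1, the main CCR2 ligand for monocytes. It had 1675 counts in FRβ KO and 2709 in WT, or 83.9 CPM in FRβ KO and 145 CPM in WT. The ratio was 0.577 (0.543 to 0.614), a 1.73-fold lower level, and the CPM intervals of the libraries did not overlap. *Ccl7* (chromosome 11, 82045712 to 82047525, plus strand) encodes MCP-3, which also signals through CCR2. It had 55 counts in FRβ KO and 156 in WT, or 2.75 CPM in FRβ KO and 8.36 CPM in WT. At a ratio of 0.329 (0.238 to 0.450), it had the 1 interval among the 10 that lay wholly below 0.5.

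*Ccl8* (chromosome 11, 82115185 to 82116799, plus strand) encodes MCP-2, which in mice is known as a ligand of CCR8. It had 14 counts in FRβ KO and 43 in WT, or 0.701 CPM in FRβ KO and 2.31 CPM in WT. Its point ratio, 0.304 (0.154 to 0.567), was the lowest of the 10, on small counts, and a 99% interval, up to 0.672, was no longer wholly past 1.5-fold. *Ccl12* (chromosome 11, 82101845 to 82103400, plus strand) encodes MCP-5, a CCR2 ligand of mice. It had 10 counts in FRβ KO and 25 in WT, or 0.501 CPM in FRβ KO and 1.34 CPM in WT. Its ratio was 0.374 (0.160 to 0.805), below 1 but not wholly past 1.5-fold. Summed, the 4 genes had 87.8 CPM in FRβ KO and 157 CPM in WT (ratio 0.558, 0.526 to 0.593), nearly all of it from *Ccl2*. The count of *Ccl2* per count of *Ccl7* was 30.5 in FRβ KO and 17.4 in WT, and the ratio of these, which needs no library scaling, was 1.75 (1.27 to 2.45), so *Ccl7* was lower by more than *Ccl2* was. For *Ccl2* per *Ccl12* the same quantity was 1.55 (0.715 to 3.62), which holds 1.

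*Ccl5* (ENSMUSG00000035042, chromosome 11, 83525778 to 83530518, minus strand) encodes RANTES, a ligand of CCR1 and CCR3 that T cells, natural killer (NK) cells and stimulated macrophages make. It had 39778 counts in FRβ KO and 25001 in WT, or 1991 CPM in FRβ KO and 1340 CPM in WT. The ratio was 1.49 (1.46 to 1.51), and the interval crossed 1.5. *Ccl5* had the 22nd highest ratio of the 5846 genes that reached 1000 counts, both libraries added. Lymphocyte markers were scarce. Of 8 T cell markers, 2 passed the filter, the list summed to 1.60 CPM in FRβ KO and 3.11 CPM in WT, and *Cd3d*, *Cd3g*, *Cd8a*, *Trac* and *Cd2* were at 0 in both. Of 8 NK cell markers, 1 passed, the list summed to 3.70 CPM in FRβ KO and 3.43 CPM in WT, and *Ncr1*, *Gzma*, *Gzmb*, *Prf1*, *Nkg7* and *Eomes* were at 0 in both. In a bulk library, fewer cells of a type and less RNA per cell cannot be told apart.

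*Ccl3* and *Ccl4*, which encode the inflammatory chemokines MIP-1α and MIP-1β, lie next to each other on chromosome 11 and had few counts. *Ccl3* (83647844 to 83649355, minus strand) had 71 counts in FRβ KO and 54 in WT, or 3.55 CPM in FRβ KO and 2.90 CPM in WT. Its ratio of 1.23 had an interval of 0.850 to 1.78, so a difference in either direction was not detectable at this depth. *Ccl4* (83662584 to 83664683, plus strand) had 28 counts in FRβ KO and 47 in WT, or 1.40 CPM in FRβ KO and 2.52 CPM in WT. Its ratio was 0.556 (0.335 to 0.907), and a 99% interval, up to 1.05, held 1. *Ccl3* per *Ccl4* was 2.54 in FRβ KO and 1.15 in WT, and the ratio of these was 2.20 (1.18 to 4.15), so the balance of the pair differed between the libraries beyond counting error. *Ccl5* per *Ccl3* was 560 in FRβ KO and 463 in WT, and the ratio of these was 1.21 (0.833 to 1.75), which holds 1.

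*Ccl6* and *Ccl9*, CCR1 ligands known from rodents and made by myeloid cells, were the next most abundant of this chromosome 11 group, and both were lower in FRβ KO. *Ccl6* (ENSMUSG00000018927, 83587882 to 83593087, minus strand) had 5411 counts in FRβ KO and 9736 in WT, or 271 CPM in FRβ KO and 522 CPM in WT. The ratio was 0.519 (0.502 to 0.537), a 1.93-fold lower level, and its interval was the narrowest of the 8 ligands that were lower. *Ccl9* (83572919 to 83578636, minus strand) had 2055 counts in FRβ KO and 2475 in WT, or 103 CPM in FRβ KO and 133 CPM in WT. Its ratio was 0.775 (0.731 to 0.822), the nearest to 1 among the 8. *Ccl6* per *Ccl9* was 2.63 in FRβ KO and 3.93 in WT, and the ratio of these was 0.669 (0.626 to 0.716), so *Ccl6* was lower by more than its neighbour was.

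*Ccl22* (chromosome 8, 94745590 to 94751699, plus strand) encodes MDC, a CCR4 ligand made by dendritic cells and macrophages, and lies apart from the other 9. It had 552 counts in FRβ KO and 735 in WT, or 27.6 CPM in FRβ KO and 39.4 CPM in WT, with a ratio of 0.701 (0.627 to 0.784). *Ccl17*, which encodes the other CCR4 ligand and lies 58.8 kb from it, had 26 counts in FRβ KO and 42 in WT, with a ratio of 0.578 (0.340 to 0.965). Both CCR4 ligands were thus lower, and together they had 28.9 CPM in FRβ KO and 41.7 CPM in WT (ratio 0.695, 0.623 to 0.775). Dendritic cell markers were mixed. Of 8 such markers 6 passed the filter, 3 with a ratio below 1 and 3 above it, with a median log2 ratio of 0.07. Their list summed to 296 CPM in FRβ KO and 403 CPM in WT, with *Siglech* at 0. Most of that sum was *Itgax*, at 268 CPM in FRβ KO and 378 CPM in WT (ratio 0.709, 0.684 to 0.735). *Itgax* is an integrin gene that macrophages also express. *Clec9a*, a marker of type 1 dendritic cells, had a ratio of 1.34 (1.13 to 1.58), and *Zbtb46*, a dendritic cell transcription factor, one of 0.737 (0.568 to 0.955). Their part in the *Ccl22* value was not tested.

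**Figure D2:**
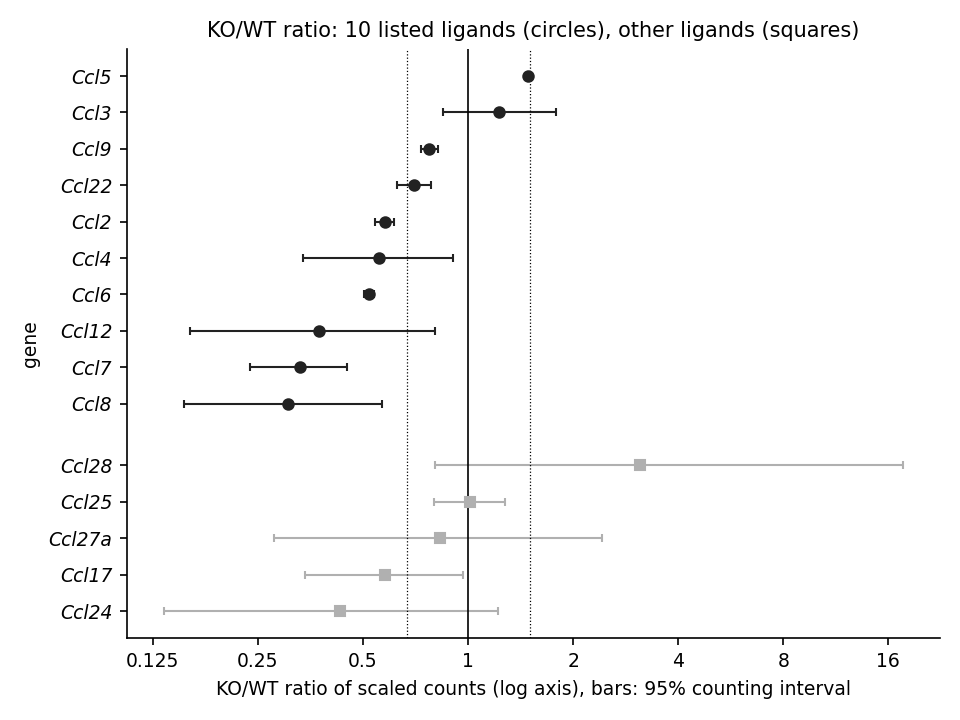
KO/WT ratios of scaled counts (log axis) for the 10 listed ligands (black circles) and 5 other CC ligands with at least 10 counts (gray squares), with 95% counting intervals, a solid line at 1 and dotted lines at 1.5-fold in each direction. *Ccl5* lay highest of the listed genes at 1.49, 8 listed genes had their whole interval left of 1, and of the other ligands *Ccl17* did.

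Beyond these, few CC ligands were detected. *Ccl25*, a gut and thymus chemokine, had 155 counts in FRβ KO and 143 in WT (ratio 1.01, 0.801 to 1.28). *Ccl24*, an eotaxin, had 6 counts in FRβ KO and 13 in WT (ratio 0.431, 0.134 to 1.22). *Ccl27a* had 8 counts in FRβ KO and 9 in WT, and *Ccl28*, a mucosal chemokine, had 10 in FRβ KO and 3 in WT (ratio 3.11, 0.801 to 17.6). The intervals of these 4 genes held 1. *Ccl27b* had 0 counts in FRβ KO and 2 in WT, and *Ccl1*, *Ccl11*, *Ccl19*, *Ccl19-ps1*, *Ccl19-ps3*, *Ccl20*, *Ccl21a*, *Ccl21b*, *Ccl21c*, *Ccl26* and *Ccl27* were at 0 in both libraries. A count of 0 allows up to 3 counts, or 0.150 CPM in FRβ KO and 0.161 CPM in WT. The *Ccl19*, *Ccl21* and *Ccl27* genes have near-identical copies, and reads that fit several copies may have been dropped in counting.

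The plot of KO/WT ratios sets the ligands on 1 axis, and the summed counts depended on 1 of them. The 10 ligands together had 2486 CPM in FRβ KO and 2197 CPM in WT (ratio 1.13, 1.12 to 1.15). Without *Ccl5* the other 9 had 494 CPM in FRβ KO and 857 CPM in WT (ratio 0.577, 0.562 to 0.591), so the direction of the sum turned when that gene was left out. Of all CC ligand counts, 49854 in FRβ KO and 41193 in WT, *Ccl5* took 79.8% (exact Clopper-Pearson 95% interval 79.4 to 80.1) in FRβ KO and 60.7% (60.2 to 61.2) in WT. *Ccl6* took 10.9% (10.6 to 11.1) in FRβ KO and 23.6% (23.2 to 24.0) in WT. The other 8 listed genes together made up 8.95% in FRβ KO and 15.2% in WT. These shares need no library scaling, and the count of *Ccl5* per count of *Ccl6* was 7.35 in FRβ KO and 2.57 in WT, a ratio of 2.86 (2.76 to 2.97). Of all counts in a library, *Ccl5* alone took 0.202% in FRβ KO and 0.132% in WT.

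**Figure D3:**
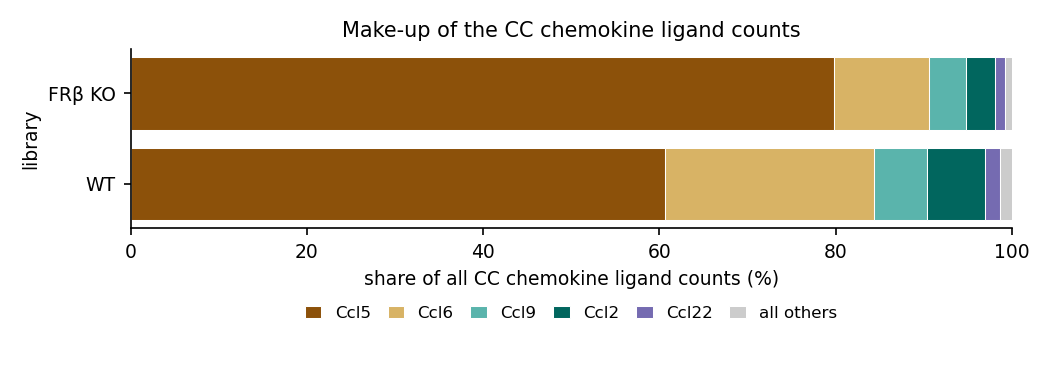
Shares (%) of all CC chemokine ligand counts in the FRβ KO library (upper bar) and the WT library (lower bar), with *Ccl5*, *Ccl6*, *Ccl9*, *Ccl2* and *Ccl22* in color and all other CC ligands in gray. *Ccl5* filled 79.8% of the FRβ KO bar and 60.7% of the WT bar, and every other colored segment was narrower in FRβ KO.

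Levels can be set between genes only per length. In TPM (the count per base of annotated exon, scaled to the same total in each library) the 5 most abundant ligands had the same order in both libraries. *Ccl5* came first at 6704 TPM in FRβ KO and 4410 TPM in WT. Then came *Ccl6* (488 TPM in FRβ KO, 918 TPM in WT), *Ccl2* (238 TPM in FRβ KO, 403 TPM in WT), *Ccl9* (109 TPM in FRβ KO, 138 TPM in WT) and *Ccl22* (38.4 TPM in FRβ KO, 53.5 TPM in WT). The counting intervals of these 5 did not overlap within a library. Below them the order changed. In FRβ KO it ran *Ccl3* at 15.0 TPM, *Ccl7* at 11.1, *Ccl4* at 6.86, *Ccl8* at 4.43 and *Ccl12* at 3.01, and each neighbor in that order overlapped the next. In WT it ran *Ccl7* at 33.0 TPM, *Ccl8* at 14.2, *Ccl4* at 12.1, *Ccl3* at 11.9 and *Ccl12* at 7.88, and only *Ccl7* stood clear of its neighbor.

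Ranked among deeply counted genes, 4 of the 5 ligands with at least 1000 counts were near the low end of the ratios and *Ccl5* near the high end. Of the 5846 such genes, *Ccl6* had the 14th lowest ratio, *Ccl2* the 20th, *Ccl22* the 56th and *Ccl9* the 126th. The whole interval lay past 1.5-fold lower for 2 of these 5 ligands, beside 0.513% of the 5846 genes. The plot of all genes shows that ratios of thinly counted genes spread widely, and *Ccl3*, *Ccl4*, *Ccl8* and *Ccl12* lie in that range.

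**Figure D4:**
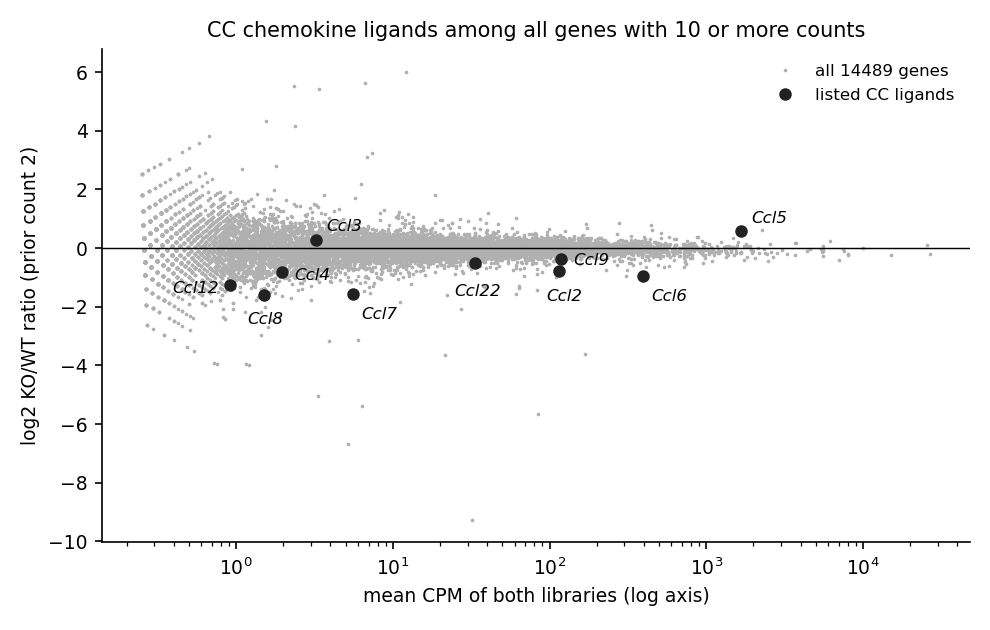
Log2 KO/WT ratio (prior count of 2) against the mean CPM of both libraries (log axis) for 14489 genes with at least 10 counts (gray dots), with the 10 listed ligands in black. *Ccl2*, *Ccl5* and *Ccl6* lie at the edge of the narrow band of abundant genes, while *Ccl3* and *Ccl4* lie within the wider cloud at low counts.

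Position along chromosome 11 was laid beside the ratios, since 9 of the 10 genes fall in 2 clusters there. *Ccl2*, *Ccl7*, *Ccl12* and *Ccl8* span 81.2 kb, and *Ccl5*, *Ccl9*, *Ccl6*, *Ccl3* and *Ccl4* span 139 kb that begins 1409 kb further along. In the first cluster all 4 ratios were below 1. In the second, 3 were below 1 and 2 above it, and of those above it the interval of *Ccl3* held 1. *Ccl5* and its neighbor *Ccl9* differed in direction, each with its whole interval on 1 side of a ratio of 1. Between *Ccl2* and 60 kb past *Ccl4*, a window chosen after values were seen, 27 other genes had at least 10 counts. Of these 27 genes 11 had a ratio below 1 and 15 above it, and that of *Lig3* rounded to 1.00 (0.847 to 1.18). *Wfdc17*, a whey acidic protein family gene of activated macrophages 39.3 kb past *Ccl4*, was the 1 of them with its whole interval past 1.5-fold lower, at 8391 counts in FRβ KO and 12126 in WT (ratio 0.646, 0.628 to 0.664). *Heatr9*, 3.60 kb from *Ccl5*, had 306 counts in FRβ KO and 162 in WT (ratio 1.76, 1.45 to 2.15). Both were named after their values were seen.

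**Figure D5:**
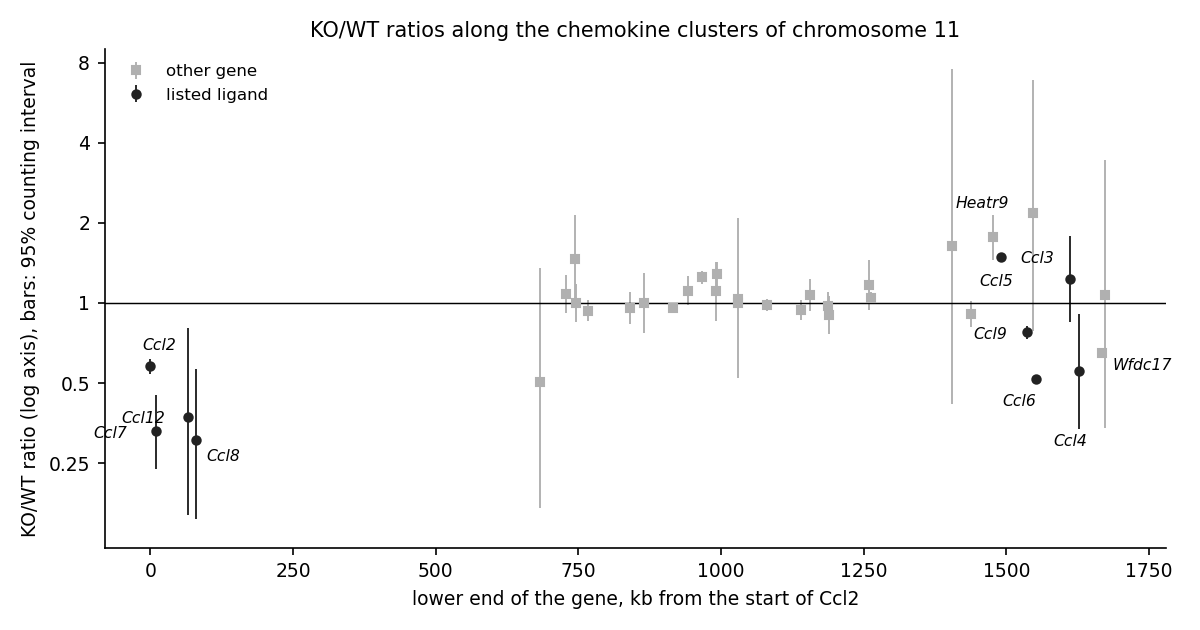
KO/WT ratio (log axis, bars for the 95% counting interval) of genes with at least 10 counts along chromosome 11, against the distance in kb of the gene's lower end from the start of *Ccl2*, with listed ligands as black circles and other genes as gray squares. The 4 ligands at the left lie below 1, and at the right *Ccl5* (1.49) and *Ccl3* (1.23) lie above 1 and *Ccl9*, *Ccl6* and *Ccl4* lie below it.

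Promoter sequence was available in the RefSeq table (GRCm38.p6) for 6 of the 10, *Ccl3*, *Ccl6*, *Ccl8*, *Ccl9*, *Ccl12* and *Ccl22*, and was not used here for *Ccl2*, *Ccl4*, *Ccl5* and *Ccl7*. The 250 bases before the start were searched on both strands for a gamma-activated site (TTCNNNGAA), an IRF core (AANNGAAA), an AP-1 site (TGANTCA) and the NF-κB consensus, and on the gene's strand for a TATA box (TATAAA). Over 32851 promoters of that length a gamma-activated site was found in 7.02%, an IRF core in 21.3%, an AP-1 site in 6.75% and a TATA box in 7.59%, and the NF-κB consensus in 1643 of them. A TATA box was found in 3 of the 6 (*Ccl8*, *Ccl9* and *Ccl12*), an IRF core in 2 (*Ccl3* and *Ccl8*), an AP-1 site and the NF-κB consensus in 1 (*Ccl9*), and a gamma-activated site in 0. A match is a run of letters and not a measured binding site. Matches are in capitals below for *Ccl8* and *Ccl12*, neighbors that were both lower, and for *Ccl6* and *Ccl9*, neighbors that were lower by unequal amounts.
Ccl8, chr11:82114935-82115184, plus strand: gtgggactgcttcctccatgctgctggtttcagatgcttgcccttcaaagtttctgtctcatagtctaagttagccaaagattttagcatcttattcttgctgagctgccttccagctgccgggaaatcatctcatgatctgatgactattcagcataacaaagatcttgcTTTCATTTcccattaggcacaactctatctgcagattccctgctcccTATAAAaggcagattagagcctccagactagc
Ccl12, chr11:82101595-82101844, plus strand: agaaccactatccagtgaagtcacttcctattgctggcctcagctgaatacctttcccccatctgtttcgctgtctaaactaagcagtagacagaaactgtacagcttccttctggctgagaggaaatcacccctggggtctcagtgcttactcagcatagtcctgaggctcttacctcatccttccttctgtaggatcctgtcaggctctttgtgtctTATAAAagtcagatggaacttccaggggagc
Ccl6, chr11:83593088-83593337, minus strand: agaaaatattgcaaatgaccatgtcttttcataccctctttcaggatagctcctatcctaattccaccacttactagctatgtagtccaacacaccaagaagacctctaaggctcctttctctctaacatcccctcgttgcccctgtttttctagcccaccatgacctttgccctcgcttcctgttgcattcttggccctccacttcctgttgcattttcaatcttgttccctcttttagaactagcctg
Ccl9, chr11:83578637-83578886, minus strand: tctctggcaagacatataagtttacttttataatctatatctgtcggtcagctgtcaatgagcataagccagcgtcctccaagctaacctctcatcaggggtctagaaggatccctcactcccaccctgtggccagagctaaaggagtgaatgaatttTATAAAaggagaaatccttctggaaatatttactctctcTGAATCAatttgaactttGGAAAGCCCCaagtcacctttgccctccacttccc

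In *Ccl8* and *Ccl12* the TATA box ended 27 and 26 bases before the start, and in *Ccl9* it ended 87 bases before it. The *Ccl6* window held none of the 5 motifs. In the RNA itself, the pentamer ATTTA, the core of the AU-rich elements that tristetraprolin binds, was counted in the longest annotated 3′ UTR of each gene. It occurred 5 times in *Ccl3*, *Ccl9* and *Ccl12*, 4 times in *Ccl6*, 2 times in *Ccl4*, *Ccl7* and *Ccl22*, once in *Ccl2* and not at all in *Ccl5* and *Ccl8*. Among 14700 genes with a 3′ UTR of 165 to 2465 bases, the range of the members, 63.5% held at least 1 ATTTA and 27.0% at least 3, beside 8 and 4 of the 10 ligands. These shares were not matched for length within that range. Per kb of 3′ UTR, those genes held 1.77 ATTTA. The ligands held 29.9 per kb in *Ccl12*, 12.2 in *Ccl3*, 6.62 in *Ccl4*, 4.60 in *Ccl7* and 4.24 in *Ccl6*. *Ccl2* held 3.64 per kb, *Ccl9* 2.03 and *Ccl22* 1.10. *Ccl5*, the ligand that was higher, and *Ccl8*, the one with the lowest ratio, both had a 3′ UTR without ATTTA.

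Receptors for these ligands were counted in the same libraries, and *Ccr1*, the most abundant, had a ratio close to 1. Of 11 CC receptor genes 6 passed the filter, with 1051 CPM in FRβ KO and 1077 CPM in WT in sum, 1 interval below 1 and 2 above it. *Ccr1*, the receptor of *Ccl3*, *Ccl5*, *Ccl6* and *Ccl9* products, had 12709 counts in FRβ KO and 12658 in WT (ratio 0.938, 0.915 to 0.961). *Ccr7*, a lymph node homing receptor, had 482 counts in FRβ KO and 245 in WT (ratio 1.84, 1.57 to 2.15). *Ccr2*, the receptor of the *Ccl2*, *Ccl7* and *Ccl12* products, had 24 counts in FRβ KO and 10 in WT (ratio 2.24, 1.03 to 5.25), which leaves it at the edge of detection. *Ccr6* and *Ccr8* were at 0 in both, and *Ccr3* had 2 counts in FRβ KO and 5 in WT. Of 6 atypical receptors, 2 passed and both had intervals above 1. These were *Ackr3*, a CXCL12 scavenger (47 counts in FRβ KO, 19 in WT, ratio 2.31, 1.33 to 4.17), and *Ccrl2*, a chemerin-binding receptor (2764 in FRβ KO, 2035 in WT, ratio 1.27, 1.20 to 1.34).

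Chemokines of the other classes were mixed. Of 17 CXC, CX3C and XC ligands 12 passed, with a median log2 ratio of −0.29, 4 intervals below 1 and 2 above it. *Cxcl9*, an IFNγ-induced ligand of CXCR3, had 6168 counts in FRβ KO and 8274 in WT (ratio 0.696, 0.673 to 0.720). *Cxcl11*, another CXCR3 ligand, had 17 in FRβ KO and 2 in WT (ratio 7.94, 1.88 to 70.8) and is annotated as a polymorphic pseudogene. The remaining CXCR3 ligand, *Cxcl10*, named after its values were seen, had a ratio of 0.814 (0.684 to 0.967). *Pf4*, platelet factor 4, had a ratio of 0.815 (0.710 to 0.936) and *Cxcl16*, the CXCR6 ligand, one of 1.09 (1.06 to 1.12).

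Of the listed genes that act upstream of the ligands, 1 had its interval past 1.5-fold. Of 21 transcription factors known to act on chemokine genes all passed, 9 had their interval below 1, 4 above it and 0 past 1.5-fold in either direction, with a median log2 ratio of −0.04. The factors whose intervals lay farthest from 1 were *Irf8* (12268 counts in FRβ KO, 15748 in WT, ratio 0.727, 0.710 to 0.745), *Atf3* (ratio 0.831, 0.811 to 0.852), *Jun* (ratio 0.820, 0.774 to 0.869) and the NF-κB subunit *Rel* (ratio 1.26, 1.15 to 1.37). Of 9 inhibitors of NF-κB, 2 had intervals above 1 and 0 below it, *Nfkbie* at 1.10 (1.04 to 1.17) and *Nfkbiz*, which is also an activator of secondary response genes, at 1.28 (1.00 to 1.63). Among 16 of 17 LPS and interferon receptor and adaptor genes that passed, 3 intervals lay above 1 and 2 below it. *Cd14*, the LPS co-receptor, was the gene past 1.5-fold, with 11218 counts in FRβ KO and 6017 in WT (ratio 1.74, 1.69 to 1.80). *Jak2*, a kinase of the IFNγ receptor, had a ratio of 0.798 (0.761 to 0.837), *Ifngr1*, a chain of that receptor, 1.17 (1.08 to 1.27), and *Jak1* 0.919 (0.893 to 0.947).

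Genes that act on the ligands after transcription were also listed. Of 9 mRNA decay and stabilizing factors, 3 had intervals above 1 and 2 below it. *Zfp36*, which encodes tristetraprolin, had 3312 counts in FRβ KO and 2633 in WT (ratio 1.17, 1.12 to 1.24), and its paralogs *Zfp36l1* and *Zfp36l2* had ratios of 1.26 (1.04 to 1.53) and 0.899 (0.879 to 0.919). *Rc3h1*, which encodes Roquin-1, had a ratio of 1.22 (1.14 to 1.31). Of 10 proteases known to trim CC chemokines 5 passed, 2 with intervals below 1 and 2 above it. *Mmp13* had 4162 counts in FRβ KO and 7531 in WT (ratio 0.516, 0.497 to 0.536), and *Mmp12*, macrophage elastase, had a ratio of 0.829 (0.822 to 0.836). *Mmp14* and *Mmp2* had ratios of 1.19 (1.15 to 1.22) and 1.28 (1.14 to 1.43).

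Polarization and cell type markers were set beside the ligands. Of 15 genes of M1-like polarization 8 had intervals below 1 and 6 above it, among them *Il1b* at 2.02 (1.85 to 2.21), *Il12b* at 1.97 (1.69 to 2.29), the prostaglandin synthase *Ptgs2* at 1.75 (1.67 to 1.84) and the cytokine signaling inhibitor *Socs1* at 0.638 (0.618 to 0.659). Of 10 genes of M2-like polarization, which include *Ccl17* and *Ccl24*, 7 passed, 4 with intervals below 1 and 1 above it, *Chil3* at 0.541 (0.503 to 0.582), *Egr2* at 0.629 (0.581 to 0.680), the mannose receptor *Mrc1* at 0.679 (0.520 to 0.883) and *Arg1* at 1.11 (1.07 to 1.15). The 6 monocyte markers summed to 314 CPM in FRβ KO and 309 CPM in WT, with *Ly6c2* at 1.26 (1.21 to 1.32). Of 8 neutrophil markers 4 passed, with 21.4 CPM in FRβ KO and 36.3 CPM in WT, nearly all of it *S100a8* (ratio 0.583, 0.514 to 0.661), while *Ngp* was at 0. Of 6 B cell markers 1 passed, with 0.501 CPM in FRβ KO and 0.911 CPM in WT and *Cd79b*, *Ms4a1*, *Pax5* and *Ebf1* among those at 0. Of 7 stromal markers 2 passed, with 3.0 CPM in FRβ KO and 3.75 CPM in WT. Of 6 mast cell, basophil and eosinophil markers 0 passed, and the list summed to 0.100 CPM in FRβ KO and 0.0536 CPM in WT. The part of the monocyte, neutrophil and polarization genes in the ligand values was not tested.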

How the data were processed

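Raw counts per gene were deposited by the authors for 1 FRβ KO and 1 WT library. Per the study's methods, a sequencing company cleaned paired reads, mapped these with HISAT2 (genome mm10) and tallied them by gene. Neither labels nor methods state the program, annotation or strand setting of that tally. The table held 54532 identifiers, of which 37 were missing from GENCODE M21 (GRCm38), the source of symbols, coordinates and exon lengths. Both count columns were matched to a sample and 0 were left over. The study used edgeR for its comparison, but 1 library per genotype gives no dispersion, so only its TMM scaling was used (edgeR 4.0.16, R 4.3.3). Ratios, shares and exact 95% Clopper-Pearson or conditional intervals were computed in Python 3.11.15 with scipy 1.17.1. Of these, the KO/WT ratio intervals were checked on simulated counts. Those counts were drawn independently, so the check does not cover duplicate reads or the spread between mice. Genes needed 10 counts over both libraries, and log2 ratios used a prior count of 2. Transcripts were aligned with blastn 2.17.0. The genes and lists were chosen with earlier results of these data known. All 10 ligands, other CC ligands with at least 10 counts, and from each list at most 4 genes whose interval lay farthest from 1 were named, with exceptions stated, and some are not reported here. Alternatives were total-count, upper-quartile and DESeq2 1.42.0 scaling, other count filters, a 99% interval, point ratios, other prior counts and other sets of ligands.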

Additional observations from a re-analysis of the deposited data

How the results depend on the processing

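With total counts in place of TMM, the ratio of the summed ligand counts was 1.16 in place of 1.13. With TMM kept but *Ccl5* left out it was 0.577, which turned its direction. By point ratio alone, without intervals, 2 ligands were higher in place of 1, and 3 were past 2-fold lower in place of 1. With a 99% interval 7 ligands were lower in place of 8, without *Ccl4*, and 3 were past 1.5-fold lower in place of 4, without *Ccl8*. With a filter of at least 1000 counts, chosen after seeing the data, 4 ligands were lower in place of 8, 2 were past 1.5-fold lower in place of 4 and 0 past 2-fold lower in place of 1, since 5 of the 10 had that many counts. The median log2 ratio kept its sign under every alternative tried, from −0.82 with the smaller prior count to −0.51 with the 1000-count filter, beside −0.80. Of 30 single ligand ratios under the 3 other scalings, 29 stayed within their counting interval, and *Ccl5* reached 1.52 with total counts. No paired analysis was possible because each genotype had 1 library, and for the same reason no library could be left out. *Ccl4*, *Ccl8* and *Ccl12* had under 50 counts in every library, which sets the width of their intervals.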
